A study of Equus caballus with 4 samples.

Results

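The caveolins and the dystrophin-glycoprotein complex were followed in differentiating equine satellite cells (ESC), the stem cells of skeletal muscle that divide and fuse into muscle fibers. Probes were taken where the gene name on the array was CAV1, CAV2, CAV3, DMD, DAG1, SGCA, SGCB, SGCD or DYSF (written *cav1*, *cav2* and so on from here), which gave 17 probes for 9 genes, out of 43603 probes on the array. Of these 17 probes, 16 could be tested, against 24672 probes in all. For a test, a probe needed a signal well above background on every array in Cy3, in Cy5 or in both.

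Both groups came from the semitendinosus muscle (*m. semitendinosus*) of horses and were harvested 3 days into differentiation. HMB-treated cells spent 24 h in medium with 50 µM β-hydroxy-β-methylbutyrate (HMB), a metabolite of the amino acid leucine, with 3 mM H2O2 added for the last 1 h. The control group received the same H2O2 without HMB, so no group was free of H2O2. RNA of the HMB-treated group was labeled with Cy5 and RNA of the control group with Cy3, and both were hybridized together on each of 4 arrays. The methods state that the best of the primary cultures was selected, so the 4 arrays need not stand for 4 horses, and the labels give the control the replicate number 1 on every array. The p-values therefore measure the spread between these arrays, which may be technical. The dyes were not swapped, so the effect of HMB and an effect of the dye cannot be told apart.

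Caveolins are small proteins that insert into the plasma membrane and bend it into flask-shaped pits called caveolae. Caveolin-1 and caveolin-2 form them in most cell types, and caveolin-3 does so in muscle fibers. The dystrophin-glycoprotein complex spans the muscle membrane and ties the actin cytoskeleton to the matrix outside the cell. Dystrophin lies under the membrane, dystroglycan crosses it and holds laminin, and the sarcoglycans stabilize dystroglycan. Dysferlin takes part in resealing torn membrane and binds caveolin-3. Loss of *dmd*, *cav3*, *dysf*, *sgca*, *sgcb* or *sgcd* causes muscular dystrophy in humans.

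The values split the genes. With HMB, *cav1* was higher by all 5 of its probes, while *cav3*, *dag1*, *sgca*, *sgcb* and *dysf* were lower by 1 probe each. No *cav1* call held when arrays were scaled to spike-in RNA, which also took 2 of these probes slightly below 0. *Dmd* was called lower by 1 tested probe, but its HMB-treated signals were not well above background on any array. *Cav2* did not pass the threshold by any of 3 probes, and the 2 probes of *sgcd* disagreed. A call needed a Benjamini-Hochberg adjusted p of at most 0.05 in limma over all 24672 probes and a fold change (FC) of at least 1.3, which is 0.38 on the log2 scale. Among the 16 tested probes, 6 were called higher, beside 12.1% of all tested probes, and 6 were called lower, beside 16.4%. In either direction 28.6% of all tested probes were called. Taken by the brightest probe of each gene, 2 of 9 genes were higher, 6 were lower and 1 was not called, beside 10.1% and 17.2% of the 8322 tested symbols. On 4 arrays the ratio kept its sign in 16 of the 17 probes, among them the untested *dmd* probe. The same count was not made over all probes, so it is not read as a trait of these genes.

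**Figure D1:**
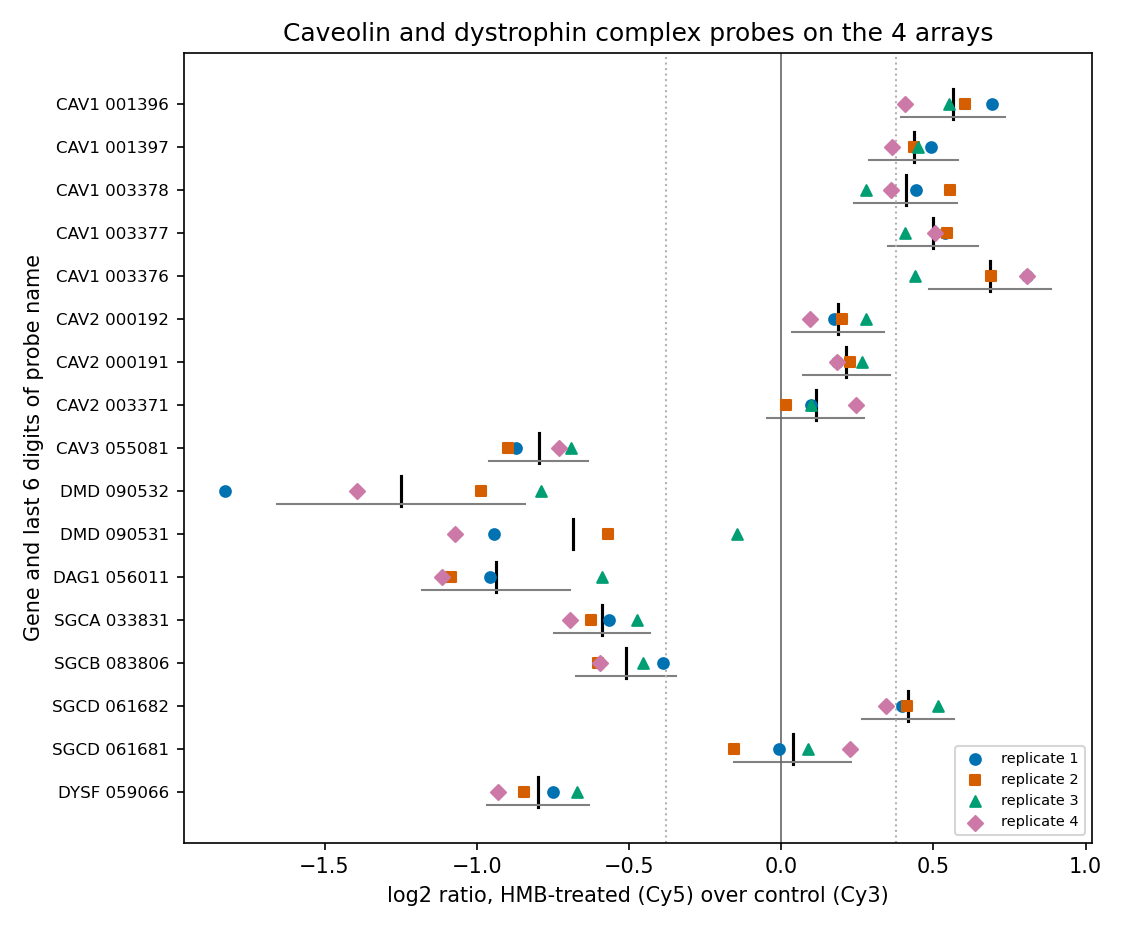
Log2 ratio of HMB-treated over control (x axis) for each of the 17 probes (y axis), with 1 symbol per array, a black bar for the mean of 4 arrays and a gray line for the 95% confidence interval of limma. The dotted lines mark an FC of 1.3 and the untested *dmd* probe has no interval. All 5 *cav1* probes lie above 0 and all probes of *cav3*, *dmd*, *dag1*, *sgca*, *sgcb* and *dysf* lie below it on every array. This is before any scaling to spike-in RNA, which turned 2 of the *cav1* probes and left no *cav1* probe called.

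The sequences of these probes show what was measured for the genes on which the split rests. Each array probe holds 60 bases, and the array files give its place in EquCab1, a build of the horse genome. The pair for *cav1* lies on the plus strand at chr4:73229378-73229437 and chr4:73229398-73229457. They share 40 bases, given in capitals.
A_69_P003378: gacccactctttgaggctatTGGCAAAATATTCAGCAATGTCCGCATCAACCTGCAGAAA
A_69_P003377: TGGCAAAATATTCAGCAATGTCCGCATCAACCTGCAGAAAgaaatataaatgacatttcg

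The *cav2* probe is on the plus strand at chr4:73181056-73181115, and the *cav3* probe is on the minus strand at chr16:8010851-8010910. They are shown because the 3 caveolins are related genes, and a probe might take up RNA of another one. Over the 23 pairs of probes of different caveolins, the longest run of identical bases was 4 to 8. This compares probes with probes and not with the whole RNA of the other caveolins. It therefore cannot show whether a probe takes up RNA of another one, which was not tested.
A_69_P003371: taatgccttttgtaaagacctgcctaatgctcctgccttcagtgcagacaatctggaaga
A_69_P055081: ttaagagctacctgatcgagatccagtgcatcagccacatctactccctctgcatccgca

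For the dystrophin complex, the probes that gave the calls of *dmd*, *sgca*, *sgcb* and *dysf* follow in that order. The *dmd* probe is placed at 166967057 to 166967116 of the unassigned sequence of EquCab1, and RefSeq places the gene on chromosome X of a later assembly. The *sgca* probe covers chr11:24679139-24680201 and the *sgcb* probe covers chr3:73266382-73269539, both on the plus strand. These spans of 1063 and 3158 bases are longer than the probe, so each probe joins bases that lie apart in the genome. The *dysf* probe is on the minus strand at chr15:27771949-27772008.
A_69_P090532: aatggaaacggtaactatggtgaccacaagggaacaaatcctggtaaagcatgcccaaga
A_69_P033831: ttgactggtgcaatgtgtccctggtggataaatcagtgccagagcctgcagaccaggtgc
A_69_P083806: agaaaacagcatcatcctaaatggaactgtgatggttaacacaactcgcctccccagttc
A_69_P059066: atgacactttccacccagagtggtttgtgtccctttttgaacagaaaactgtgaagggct

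For the technical background, 57.6% to 60.6% of probes were well above background in Cy3 and 55.2% to 61.8% in Cy5, no spot was saturated, and 13 to 35 spots per array were marked as outliers and left out. Between arrays, the log2 ratios correlated with r of 0.837 to 0.920 over 24672 probes, which are not independent replicates. As markers of the labeled cell type, 5 genes of satellite cells and myoblasts were on the array and all 5 were above background. *Myf5*, *des* and *chrna1* were lower with HMB, with log2 ratios of -1.49, -1.22 and -0.85. *Myod1* (0.32, adjusted p of 0.0441 in limma) and *myog* (0.03) did not fall and were not called. The summed signal of these 5 genes was 26550 to 32930 in control and 12190 to 18120 in the HMB-treated group. Most of this sum came from *des* and *chrna1*. Of 7 fibroblast markers on the array, 5 were higher with HMB (*pdgfra*, *dcn*, *thy1*, *lum* and *fbln1*) and 0 were lower, with a median log2 ratio of 0.42. The brightest of the 7, *col1a2* (-0.23) and *col3a1* (0.06), were not called. The summed signal of the 7 fibroblast markers was 416800 to 507200 in control and 409500 to 639700 in the HMB-treated group. Of the smooth muscle and leukocyte markers, 3 and 2 were above background and 0 and 1 (*cd68*) were higher. None of 7 endothelial and 5 adipocyte markers on the array was above background on all arrays. The part of the cell mixture in the results given here was not tested. In such cultures fewer cells of a type and less RNA per cell cannot be told apart.

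*Cav1*, which codes for the main coat protein of caveolae outside muscle fibers, was higher with HMB on all 4 arrays, relative to the center of each array. The 2 brightest probes lie next to each other at chr4:73231223-73231282 and chr4:73231284-73231343. At the brightest, A_69_P001396, the control signals were 6815, 5985, 7862 and 6698 scanner units and the HMB-treated signals were 11020, 9102, 11510 and 8888. Every HMB-treated signal was above every control signal, as was the case for 8.67% of all tested probes. The log2 ratios were 0.69, 0.60, 0.55 and 0.41, with a mean of 0.56 ± 0.12 (SD, n = 4), an FC of 1.48 and an adjusted p of 0.00137 in limma. Its neighbor A_69_P001397 gave 0.43 ± 0.05 with an adjusted p of 0.00204.

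The other 3 *cav1* probes lie 1745 to 1785 bases before this pair and overlap one another by 20 to 40 bases, so they are no independent measurements. A_69_P003378 gave 0.41 ± 0.12 and A_69_P003377 gave 0.50 ± 0.06. The third, A_69_P003376, is dim, with a mean signal of 115.1 in control and 183.7 in the HMB-treated group, and had the highest log2 ratio of the gene, 0.69 ± 0.17. Adjusted p-values of these 3 probes were 0.00463, 0.00128 and 0.0012 in limma. The 4 other probes of *cav1* differed from the brightest by -0.16 to 0.12, and limma called none of these differences, with adjusted p-values of 0.11 to 0.503. Without replicate 2, A_69_P003378 fell under the FC threshold (0.36, adjusted p of 0.0206), and with normexp background correction A_69_P003376 did so (0.34, adjusted p of 0.0155). Limma's treat for an FC above 1.3 called 1 of the 5 probes, A_69_P003376 (adjusted p of 0.0414).

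*Cav2* codes for the partner with which caveolin-1 assembles, and its probes lie 46.2 kb from those of *cav1* on the same chromosome. At its brightest probe, A_69_P000192, the control signals were 4537, 3948, 5148 and 4352 and the HMB-treated signals were 5113, 4538, 6239 and 4651. The groups overlapped. The log2 ratios were 0.19 ± 0.08 and, at the adjoining A_69_P000191, 0.21 ± 0.04, with adjusted p-values of 0.0498 and 0.0255 in limma, and both were under the FC threshold. The third probe, A_69_P003371, gave 0.11 with a 95% confidence interval of -0.05 to 0.27 and an adjusted p of 0.2. The upper limits of the 3 intervals were 0.34, 0.36 and 0.27, all below the 0.38 that a call needs.

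*Cav3*, the caveolin of muscle fibers, was lower with HMB. Its single probe gave control signals of 699.1, 714.6, 796.3 and 620.7 and HMB-treated signals of 382.5, 383.3, 493.9 and 374.4. All 4 HMB-treated signals were below all 4 control signals, as for 13% of all tested probes, and this was so for 6 of the 17 probes here. The log2 ratios were -0.87, -0.90, -0.69 and -0.73, with a mean of -0.80 ± 0.10 (n = 4). The control group was thus higher by an FC of 1.74, with an adjusted p of 2.9e-04 in limma. The call was kept under 18 of 18 other ways of processing, with means of -1.28 to -0.56. Several of these ways, here and for the other genes, keep the same ratios.

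**Figure D2:**
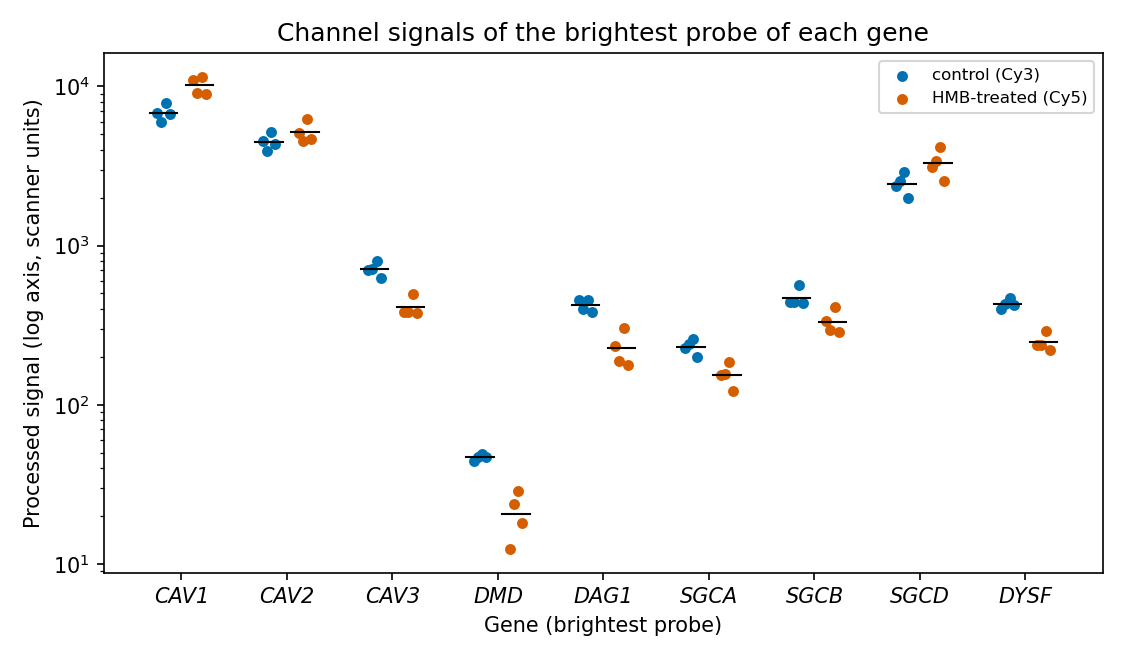
Processed signal in scanner units on a log axis (y axis) of the brightest probe of each gene (x axis), in control (Cy3) and HMB-treated cells (Cy5), with 1 point per array and a line at the mean of 4 arrays. Signals of different probes are not comparable in level. The channels do not overlap for *cav1*, which is higher with HMB, nor for *cav3*, *dmd*, *dag1*, *sgca*, *sgcb* and *dysf*, which are lower. For *dmd* the HMB-treated points were not well above background on any array.

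*Dmd* codes for dystrophin, and its RNA was near the limit of the arrays. At A_69_P090532 the control signals were 44.01, 47.26, 49.37 and 47.11, well above background on all 4 arrays. The HMB-treated signals were 12.41, 23.87, 28.55 and 17.94, which were not well above background on any array. The level with HMB was therefore not measured. As deposited, the signals were lower with HMB by a mean FC of 2.38 (adjusted p of 0.00185 in limma), which is no lower limit, since it rests on signals at background. The log2 ratios were -1.83, -0.99, -0.79 and -1.39. With normexp background correction the mean was -0.18 (adjusted p of 0.0608) and with no background correction it was -0.28, and neither was a call. The second probe, 10 bases further on, was above background on 1 of 4 arrays in control and on 0 in the HMB-treated group, so it was not tested.

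*Dag1*, which codes for both subunits of dystroglycan, was lower on every array. Its probe, on the minus strand at chr16:37643080-37643139, gave control signals of 454.8, 401.6, 454.1 and 384.5 and HMB-treated signals of 234.1, 189.2, 301.6 and 177.5. The groups did not overlap, and replicate 3 had the smallest difference. The mean log2 ratio was -0.94 ± 0.24 (n = 4), an FC of 1.91 in favor of the control, with an adjusted p of 7.51e-04 in limma. The call was kept under all 18 alternatives run, with means of -1.43 to -0.59.

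Of the 3 sarcoglycans, α-sarcoglycan and β-sarcoglycan were lower. For *sgca*, the α-subunit of muscle fibers, the control signals were 227.7, 240.3, 259 and 198.3 and the HMB-treated signals were 154, 155.7, 186.6 and 122.7. The mean log2 ratio was -0.59 ± 0.09, an FC of 1.5 lower with HMB (adjusted p of 8.7e-04 in limma). For *sgcb*, which pairs with the δ-subunit in the core of the complex, the control signals were 438.7, 444.4, 563.2 and 433.6 and the HMB-treated signals were 335, 292.9, 411.4 and 286.8. The mean was -0.51 ± 0.11, with an adjusted p of 0.00177. Neither gene's groups overlapped. Both fell under the FC threshold with normexp background correction (-0.27 and -0.33 for *sgca* and *sgcb*) and with no background correction (-0.35 and -0.35). Limma's treat for an FC above 1.3 called neither, with adjusted p-values of 0.0696 and 0.289.

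δ-Sarcoglycan, *sgcd*, was measured by 2 adjoining probes that did not give the same result, and both turned below 0 with spike-in scaling. At A_69_P061682 the control signals were 2357, 2535, 2895 and 2000 and the HMB-treated signals were 3104, 3378, 4133 and 2536. The ranges overlapped between arrays, but the HMB-treated signal was the higher on each of the 4 arrays, and the mean log2 ratio was 0.42 ± 0.07 (FC of 1.33 and adjusted p of 0.00274 in limma). At A_69_P061681 the log2 ratios were -0.01, -0.16, 0.09 and 0.23, with a mean of 0.04 ± 0.16, a 95% confidence interval of -0.15 to 0.23 and an adjusted p of 0.723. The second probe was lower than the first on all 4 arrays, by a mean log2 difference of -0.38 ± 0.19 with an interval of -0.59 to -0.17. Limma did not call this difference over all 7012 probe pairs (adjusted p of 0.0756), of which 1.61% were called. With normexp background correction it was called (-0.38, adjusted p of 0.0115). The mean over both probes was 0.23 with an adjusted p of 0.0269, under the FC threshold. Treat called neither probe, with an adjusted p of 1 for both.

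The *sgcd* probes lie on the minus strand at chr14:21542073-21542132 and chr14:21542013-21542072, and they differ in a repeat. A stretch of 30 bases of each is given, the called probe first, with the longest alternation of G and T in capitals.
A_69_P061682: acctTGTGTGTGTGTGTGTGTGTGTGggcg
A_69_P061681: gagtatgtttgcGTGTGTgagtggatataa

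This run is 22 bases long in the called probe and 6 in the other, and it was 2 to 4 bases in the remaining members. Of all tested probes, 7 had a run of 22 to 34 bases, and 7 of 7 were called higher, with log2 ratios of 0.42 to 0.58. The other 6 of them belong to 1 unnamed transcript. Of 24 probes of 12 gene names with a run of 12 to 15 bases, 15 were higher and 0 lower (62.5%), while 12.1% of the 24639 probes with a run of at most 11 bases were higher. The 2 probes between these lengths were split, with 1 higher and 1 lower. The part of the repeat in the result of *sgcd* was not tested, and this comparison was chosen after the values were seen.

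*Dysf*, which codes for dysferlin, was lower with HMB. The control signals were 398.8, 427.3, 466 and 422.9 and the HMB-treated signals were 237.1, 238.1, 292.5 and 221.9. The groups were apart on all arrays. The mean log2 ratio was -0.80 ± 0.11 (n = 4), an FC of 1.74 lower, with an adjusted p of 3.16e-04 in limma. Dysferlin was also called under all 18 alternatives run, with means of -1.29 to -0.44.

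The members were then set against each other within the arrays, by the brightest probe of each gene. *Cav1* was above *cav3* by a log2 difference of 1.36 ± 0.20 and above *cav2* by 0.38 ± 0.11, and *cav2* was above *cav3* by 0.98 ± 0.12. The called *sgcd* probe was above *sgca* by 1.01 ± 0.04 and above *sgcb* by 0.93 ± 0.10. Each of these 5 differences had the same sign on 4 of 4 arrays. For *dmd* against *dag1*, the sixth comparison, the difference was -0.31 ± 0.41. It is not read, because *dmd* had no HMB-treated signal well above background. In a two-sided exact sign-flip permutation test, p was 0.125 for the 5 differences, the smallest that 4 arrays allow, and 0.25 for the sixth. After adjustment over the 6 comparisons p was 0.15 for the 5 and 0.25 for the sixth, so this design could not reach 0.05.

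Scaling to spike-in RNA moved all members together, while changes of background correction moved them by unlike amounts. Scaling to the RNA added as spike-in lowered the median of all probes by 0.49 on the log2 scale, and with that shift the *cav1* probes lay between -0.08 and 0.20 and those of *cav2* between -0.37 and -0.27. The called *sgcd* probe turned to -0.07 and *cav3* to -1.28. The directions given here are thus relative to the center of each array. Of all called probes 42.5% were higher, against 55% with normexp background correction, 60.1% with no background correction and 6.71% with spike-in scaling.

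**Figure D3:**
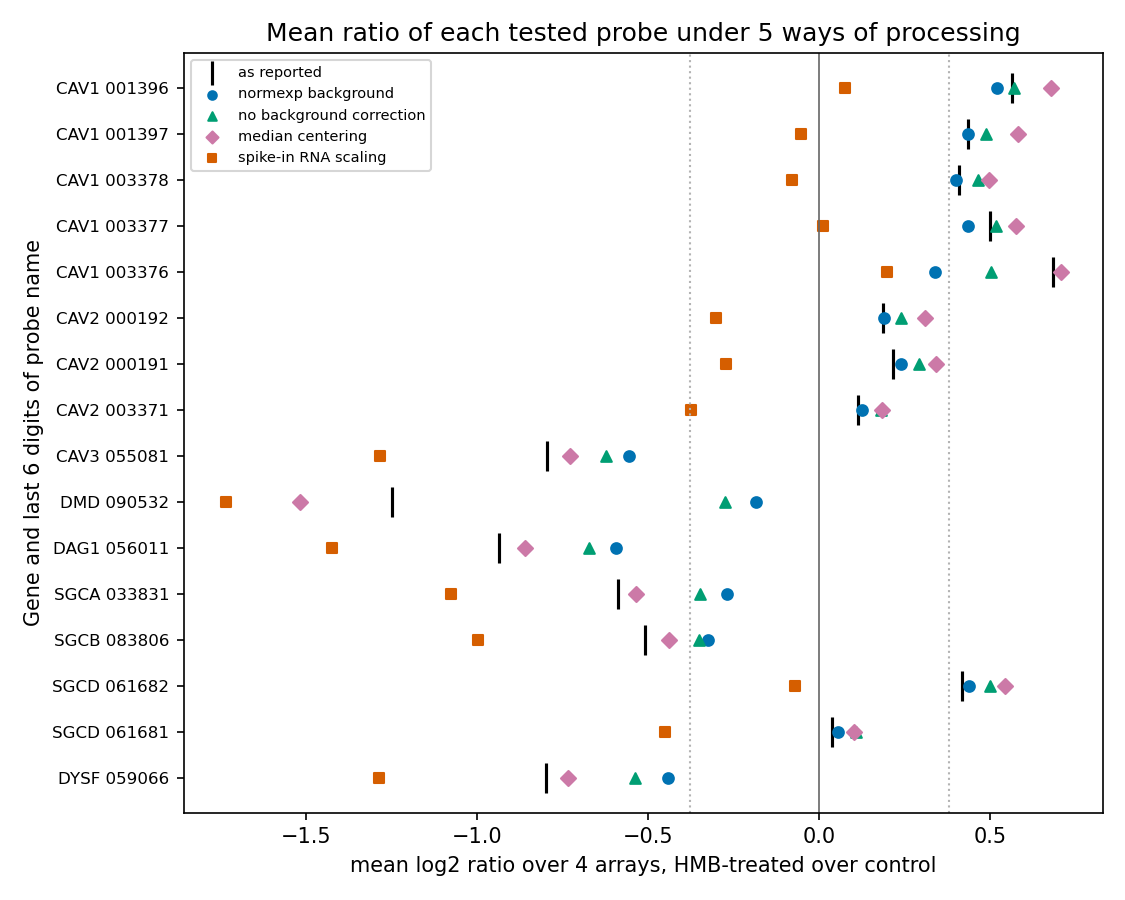
Mean log2 ratio over 4 arrays of HMB-treated over control (x axis) for the 16 tested probes (y axis) as reported and under 4 other ways of processing, with dotted lines at an FC of 1.3. Spike-in scaling shifted every probe to the left, and took 2 *cav1* probes, all *cav2* probes and both *sgcd* probes below 0. Both changes of background correction drew *dmd*, *sgca* and *sgcb* inside the lines.

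The 5 companion lists held other genes of these structures, 78 in all, of which 60 were on the array and 50 were tested. In all, 7 were higher, 16 were lower and 27 were not called, beside 10.1% and 17.2% of the tested symbols. Among 11 tested partners of the caveolins, 3 were higher and 2 lower, with a median log2 ratio of -0.08 that stands beside -0.09 for all tested symbols. The 3 higher genes were *ehd4* (0.73 ± 0.33), an ATPase of membrane tubules, *cavin3* (0.65 ± 0.14), a coat protein of caveolae, and *flot2* (0.52 ± 0.28), a flotillin. *Cavin4*, the coat protein of muscle caveolae, was lower at -0.80 ± 0.11, and the membrane-bending *pacsin3* was lower at -0.55 ± 0.14. *Cavin1*, the coat protein on which caveolae depend, was at 0.03 with an adjusted p of 0.821 in limma. With normexp background correction 1 partner was higher and 2 were lower.

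Of the other genes of the dystrophin complex, 7 were tested, and 3 were lower and 0 higher, with a median of -0.34. *Lama2*, the laminin chain that dystroglycan holds, was at -1.12 ± 0.26 by its brightest probe, and both of its 2 tested probes were lower. γ-Sarcoglycan, *sgcg*, was at -1.01 ± 0.03 (adjusted p of 6.23e-05 in limma) and β1-syntrophin, *sntb1*, at -0.73 ± 0.21. ε-Sarcoglycan, *sgce*, was at 0.08 and was not called. Neither the dystrophin paralog *utrn* nor the dystrobrevins *dtna* and *dtnb* passed the filter for a test. Median centering in place of lowess called 1 gene of this list higher.

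Of 10 tested genes that glycosylate dystroglycan, 5 were lower and 1 was higher, with a median of -0.37. The mannosyltransferase *pomt2*, which starts the sugar chain, was lower at -0.56 ± 0.21. *Gmppb*, which makes GDP-mannose, was higher at 0.45 ± 0.16. With normexp background correction 1 gene of this list was lower in place of 5.

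Among 11 tested genes of membrane repair, 2 were higher and 1 was lower, with a median of 0.05. The SNARE protein *vamp8* was at 0.52 ± 0.19 and annexin A1, *anxa1*, at 0.44 ± 0.09, with 2 of 4 tested *anxa1* probes called. The protease *capn2* was at -0.41 ± 0.09, with 2 of 4 tested probes called. Median centering raised the higher genes to 5 and left 0 lower.

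Costameres are the sites that anchor the contractile apparatus to the membrane, and 5 of their 11 tested genes were lower and 1 was higher, with a median of -0.29. The integrin-binding *itgb1bp2* was at -1.61 ± 0.14 (adjusted p of 2.41e-05 in limma), the intermediate filament *des* at -1.22 ± 0.29 and the LIM protein *csrp3* at -0.96 ± 0.34. All 5 tested probes of *csrp3* were lower. α-Parvin, *parva*, was higher at 0.47 ± 0.20. With normexp background correction 3 genes were lower and 0 higher. The adjusted p-values of the genes named from these lists were 2.41e-05 to 0.0115 in limma, apart from the genes given as not called.

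**Figure D4:**
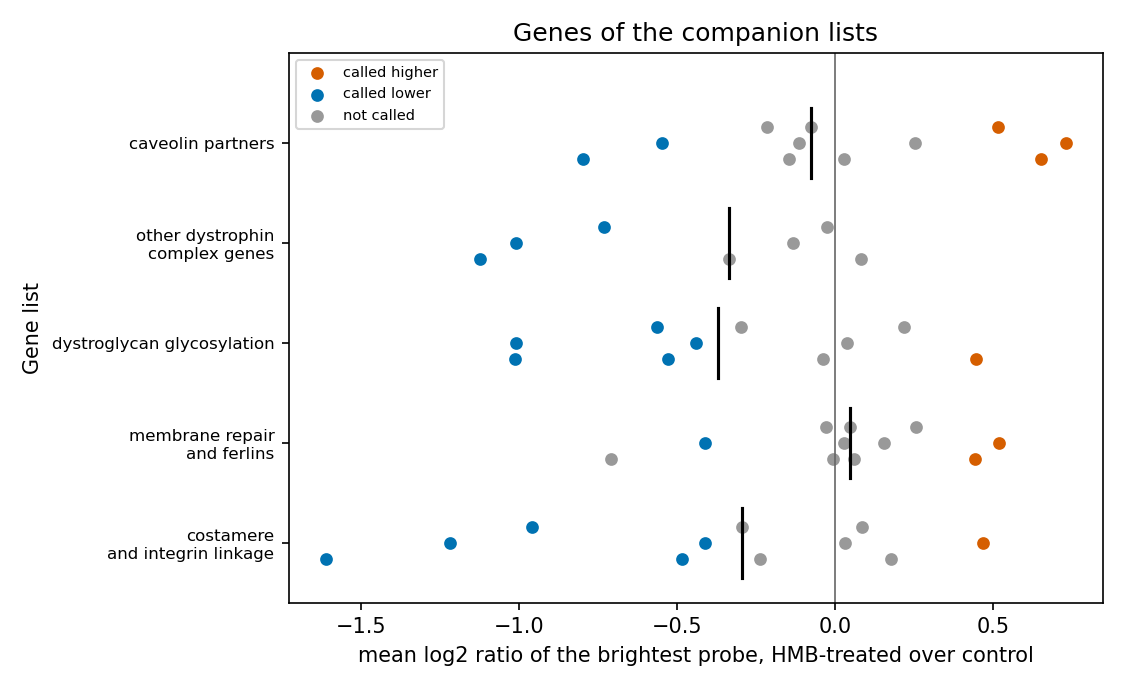
Mean log2 ratio of HMB-treated over control by the brightest probe (x axis) of each tested gene in the 5 companion lists (y axis), with 1 point per gene, colored by its call, and a black bar at the median of the list. The medians run from -0.37 for the dystroglycan glycosylation list to 0.05 for the membrane repair list.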

How the data were processed

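Gene expression was measured on 4 two-color Agilent horse arrays. The authors' scanner files hold intensity values, namely each channel's signal after background subtraction and linear and lowess normalization within the array (Feature Extraction 10.10.1.1 per the file headers). The deposited log10 ratios of Cy5 over Cy3 were turned into log2 ratios here, and the authors' table held the same ratios. Where a signal did not exceed background, Feature Extraction had put a surrogate in its place.

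Control and marked spots were left out. Ratios were tested in R 4.3.3 with limma 3.58.1 (intercept, empirical Bayes, Benjamini-Hochberg over all tested probes). A tested probe had ratios on at least 3 arrays. Differences between members were tested by exact sign flips. On simulated data for 24672 probes, limma recovered 161 of 200 changed probes (80.5%) with 7 false calls. These counts hold for those data only, where 200 probes differed, while 7048 probes were called on the arrays. The share of true differences found on the arrays, and the share of calls that are false, was not tested. Array number limits the precision.

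The members and the lists were chosen with earlier results of these data known. From each companion list, called genes of the same sign on all arrays were to be named, up to 3 that rose most and 3 that fell most. The other list genes named (*cavin1*, *sgce*, *utrn*, *dtna*, *dtnb*) were chosen after their values were seen. Some genes that the rule names are not reported here. Alternatives covered the test, background correction, normalization, filters, the authors' table and each replicate left out.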

Additional observations from a re-analysis of the deposited data

Results flagged for a closer look

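Among 17 member probes and 19 genes that the rule picks from the companion lists, 36 in all, 2 had 1 array far from the other 3 by Dixon's test, and chance gives about 1 in 20. The log2 ratio of *ehd4* was 0.23 on replicate 4, against 0.88 to 0.91 on the others. The log2 ratio of *des* was -0.79 on replicate 3, the weakest decrease of the 4 arrays. None of the 17 member probes stood out in this way.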

How the results depend on the processing

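Beside the 6 probes higher and 6 lower as reported, limma's treat for an FC above 1.3 left 1 probe higher and 4 lower. Spike-in scaling left 0 higher and called 7 lower, and normexp and no background correction each left 3 lower. Over all 24672 tested probes, 7048 were called as reported and 2822 with treat. Normexp called 3538, no background correction 4439 and spike-in scaling 18572. With spike-in scaling 6.71% of the called probes were higher, so most probes of the array were called lower and the 7 are no trait of these genes. Leaving out 1 replicate gave 5 to 6 higher, 6 lower and 0 differing probe pairs, and normexp gave 1 such pair, that of *sgcd*. Spike-in scaling turned A_69_P001397 to -0.053 and A_69_P003378 to -0.0788 (*cav1*), and A_69_P061682 to -0.0709 and A_69_P061681 to -0.45 (*sgcd*). A_69_P061681, not called as reported, was thereby called lower (adjusted p of 0.00264 in limma). Normexp turned the difference of the *dmd* and *dag1* ratios from -0.31 to 0.41, but the *dmd* ratio rests on HMB-treated signals at background. The causes were not tested. For member probes, 265 of 287 values under the alternatives kept their call or their lack of one. Another 18 lost the call without a change of sign, and 4 changed both sign and call. Uncalled values that changed sign and stayed uncalled are among the 265, as for *cav2* with spike-in scaling and A_69_P061681 without replicate 4. Several alternatives change only the test or the filter and keep the mean ratio, and the authors' table held the same ratios. The counts of alternatives that kept a call therefore overstate how far the ratios were put to the test. The *cav2* probes, called under none of the alternatives, were below 0 with spike-in scaling. Every test was paired by array, since each array carried both RNAs, so no other pairing was tried. Dim probes limit *dmd*, which had no HMB-treated signal above background.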
